A study of Rattus norvegicus with 11 samples.

Results

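The genes described here belong to the antigen presentation machinery, and 7 of the 32623 gene IDs of the rat count table were taken for it by their Ensembl IDs. They comprise 3 genes of the class II pathway, Cd74 (ENSRNOG00000018735), RT1-Da (ENSRNOG00000032844) and RT1-Ba (ENSRNOG00000000451), and 4 genes of the class I pathway, B2m (ENSRNOG00000017123), Psmb8 (ENSRNOG00000000456), Psmb9 (ENSRNOG00000000459) and Tap1 (ENSRNOG00000000457). All 7 IDs were present in the count table and passed the filter on low counts. The pairs of ID and symbol come from the rule that chose the genes. The count table carries no symbols and the gene table used here lists no Ensembl IDs, so the names could not be checked against it.

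Antigen presentation places peptides on the cell surface for T cells to inspect, by separate routes for the 2 classes of the major histocompatibility complex (MHC), which in the rat is called RT1. Class II molecules are pairs of an alpha and a beta chain that carry peptides from material taken up by the cell, and they are made mainly by microglia, macrophages, dendritic cells and B cells. Class I molecules are carried by nearly all nucleated cells. They show peptides that the proteasome cuts in the cytosol, and interferon raises many genes of their route. In the spinal cord, microglia and the macrophages of its borders are the main class II cells known, and class II genes are often used as signs of their activation.

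The tissue was ipsilateral spinal cord of adult male rats of 350 to 400 g, measured by RNA sequencing in 3 groups. The naive group (Naive, 3 libraries) had neither drug nor electrode. The sham group (PTX+Sham SCS, 5 libraries) was given intraperitoneal paclitaxel (days 1, 3, 5 and 7, 1.5 mg/kg each), a chemotherapy agent that stabilises microtubules and is known to injure peripheral nerves, and an electrode for spinal cord stimulation (SCS) that was not used. The stimulated group (PTX+SCS, 3 libraries) received the same drug and electrode, with stimulation at 50 Hz and 0.2 ms pulses at 80% of MoT as the labels abbreviate it. Stimulated and sham rats therefore share drug and electrode, and the groups analysed here do not separate these. The stimulated libraries are called SCS 1, SCS 2 and SCS 5 after their titles, whose letter S could also stand for sham. The group label was followed. The sources used here give no strain, age or batch. Total counts were 11243288 to 56775931 per library, of which the 7 genes together took 6037 to 30644. Nothing says that the libraries came from separate rats, so p-values measure only the spread between these libraries.

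Promoter sequences are shown first. Whether they bear on how the genes of each class moved over the libraries was not tested. RefSeq promoters of the rat assembly GRCr8, from 250 bases before to 50 bases after the start site, were matched by symbol for 7 of the 7 genes. They were searched on both strands for 4 short motifs. These were the core of the class II X box (TAGCAAC), the Y box (ATTGG), the interferon response element (GAAA, any 2 bases, GAAA) and a form of the kappa B site (GGGANTNCC). The sequences below run 5′ to 3′ along each gene, with the matched letters in capitals and in the gene's own orientation, so that a match on the opposite strand appears as its reverse complement. They lie at chr18:56526956-56527255 for Cd74, chr20:4515165-4515464 for RT1-Da, chr20:4576807-4577106 for RT1-Ba and chr3:129549080-129549379 for B2m, all on the plus strand, and at chr20:4668494-4668793 for Tap1 on the minus strand. The first 3 are the class II genes. B2m and Tap1 are shown as class I examples of the interferon response element. Psmb8, which also holds it, and Psmb9, which has no match to it, are not printed.
Cd74: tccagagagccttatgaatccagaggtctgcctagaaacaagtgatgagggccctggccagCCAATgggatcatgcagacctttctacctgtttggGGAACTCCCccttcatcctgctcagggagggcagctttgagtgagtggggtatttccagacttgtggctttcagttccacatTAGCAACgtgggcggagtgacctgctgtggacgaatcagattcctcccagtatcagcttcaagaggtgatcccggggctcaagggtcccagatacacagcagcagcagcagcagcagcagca
RT1-Da: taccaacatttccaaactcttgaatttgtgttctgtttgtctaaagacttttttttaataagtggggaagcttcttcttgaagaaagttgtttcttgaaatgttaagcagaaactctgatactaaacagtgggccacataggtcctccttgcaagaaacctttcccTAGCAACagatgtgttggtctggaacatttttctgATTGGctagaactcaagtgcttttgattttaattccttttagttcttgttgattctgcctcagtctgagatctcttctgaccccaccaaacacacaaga
RT1-Ba: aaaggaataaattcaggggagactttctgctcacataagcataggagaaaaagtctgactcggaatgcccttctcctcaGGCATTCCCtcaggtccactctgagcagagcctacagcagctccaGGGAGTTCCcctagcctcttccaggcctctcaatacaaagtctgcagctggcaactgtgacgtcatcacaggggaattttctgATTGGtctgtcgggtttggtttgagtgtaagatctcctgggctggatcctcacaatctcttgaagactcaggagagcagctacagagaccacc
B2m: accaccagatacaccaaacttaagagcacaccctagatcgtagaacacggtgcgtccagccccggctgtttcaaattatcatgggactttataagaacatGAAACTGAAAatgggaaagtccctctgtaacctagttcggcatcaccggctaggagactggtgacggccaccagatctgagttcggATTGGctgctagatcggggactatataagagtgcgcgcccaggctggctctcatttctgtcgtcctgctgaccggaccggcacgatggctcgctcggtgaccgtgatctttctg
Tap1: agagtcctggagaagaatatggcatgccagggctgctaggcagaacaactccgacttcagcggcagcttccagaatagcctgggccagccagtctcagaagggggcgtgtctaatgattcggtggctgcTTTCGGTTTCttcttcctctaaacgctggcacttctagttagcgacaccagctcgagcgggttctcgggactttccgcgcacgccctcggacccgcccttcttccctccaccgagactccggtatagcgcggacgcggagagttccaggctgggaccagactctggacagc

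The X box core was present in Cd74, where its first base lies at -72 from the start site, and in RT1-Da, at -84. It matched in 2 of the 3 class II promoters, in 0 of the 4 class I promoters and in 3.58% of all 33469 promoters of the same length. Only exact matches were counted. The RT1-Ba sequence holds tggcaac upstream of its Y box, which differs from the core only in g for a. So RT1-Ba was not shown to lack an X box. The Y box is a frequent short motif, found in 37.5% of all promoters, in 3 of 3 class II and in 3 of 4 class I promoters. In RT1-Da it followed the X box at -49 and in RT1-Ba it lay at -43. In Cd74 the exact match lay on the opposite strand at -189, upstream of the X box. The Cd74 sequence also holds cgaat downstream of the X box, which differs from ccaat only in g for c and was not counted. The interferon response element matched in B2m at -150, in Tap1 at -121 on the opposite strand and in Psmb8 at -4 on the opposite strand. That makes 3 of 4 class I promoters and 0 of 3 class II promoters, against 3.92% of all promoters. A missing match does not show that interferon leaves a gene unaffected, and no response to interferon was measured here. The kappa B form matched in Cd74 once and in RT1-Ba at 2 places, and in 0 of the class I promoters (3.72% of all promoters). The Tap1 sequence holds gggactttcc and the B2m sequence holds gggaaagtccc, similar letters that this form cannot match. So the class I promoters were not shown to lack a kappa B site. The promoters of Tap1 and Psmb9 lie on opposite strands and share 44 bases. The Tap1 match to the interferon response element lies between the start sites of both genes, outside the Psmb9 window. These matches describe letters in a window and are neither tested sites nor causes.

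**Figure D1:**
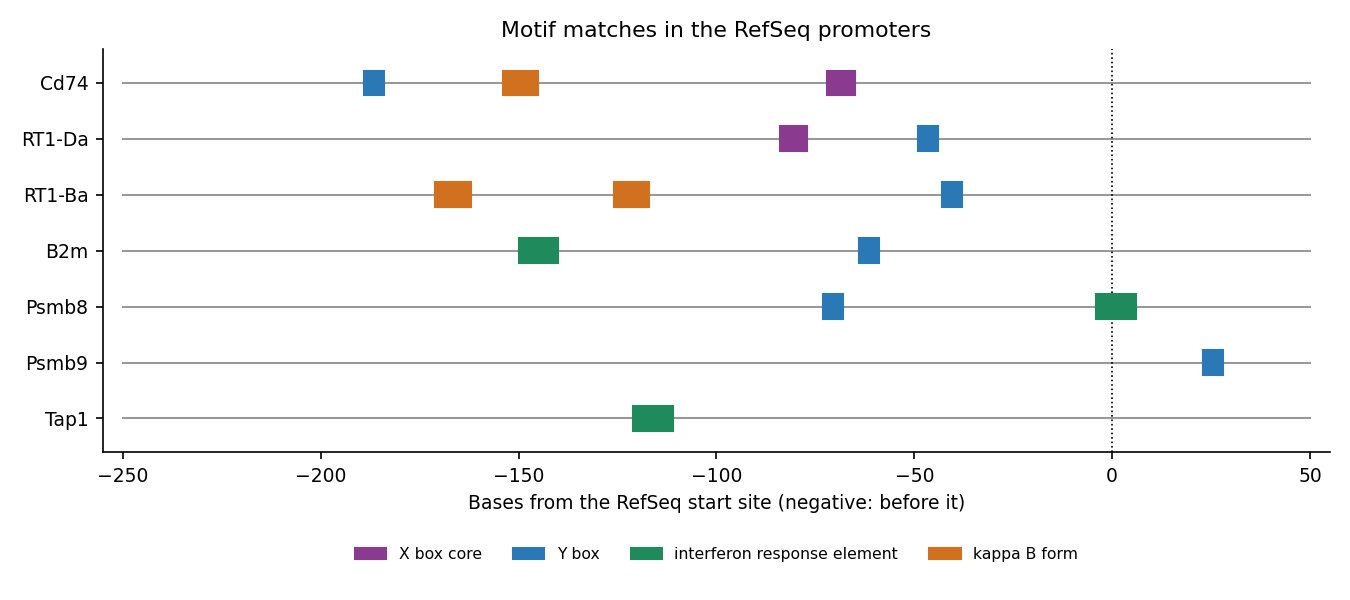
Exact matches of 4 motifs (coloured blocks) along the RefSeq promoter of each gene, with the distance from the start site in bases on the x axis. The X box core appears in Cd74 and RT1-Da, and the interferon response element in B2m, Psmb8 and Tap1.

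Levels are given as CPM, the share of a gene in its library's total count on a scale common to all libraries, with totals corrected by TMM factors. They compare libraries within a gene, not genes with each other, because gene lengths were not used. A gene was called changed where the adjusted p of the edgeR quasi-likelihood test, fitted on all 15758 genes that passed the filter, was under 0.05. In this bulk tissue, fewer cells of a type and less RNA per cell cannot be told apart. Markers of microglia, macrophages, B cells and T cells were not measured here, because no table paired their IDs with names, so their part in any result below was not tested. The RT1 genes are polymorphic and have close relatives, so their counts are uncertain where reads fit more than 1 copy.

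In the sham libraries the 3 class II genes lay below naive, at log2 fold changes of -1.59 to -0.93, while the 4 class I genes lay above naive, at 0.29 to 0.66. None of these 7 differences passed the test, beside 0.14% of all genes that did. In the stimulated libraries the class II genes stood at 1.18-fold to 1.25-fold of naive, which did not pass. RT1-Ba was called higher in stimulated than in sham libraries, a comparison in which 3.57% of all genes were called. The class I genes had their highest means in stimulated libraries. All 4 were called higher than in naive libraries, beside 10.1% of all genes called higher.

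**Figure D2:**
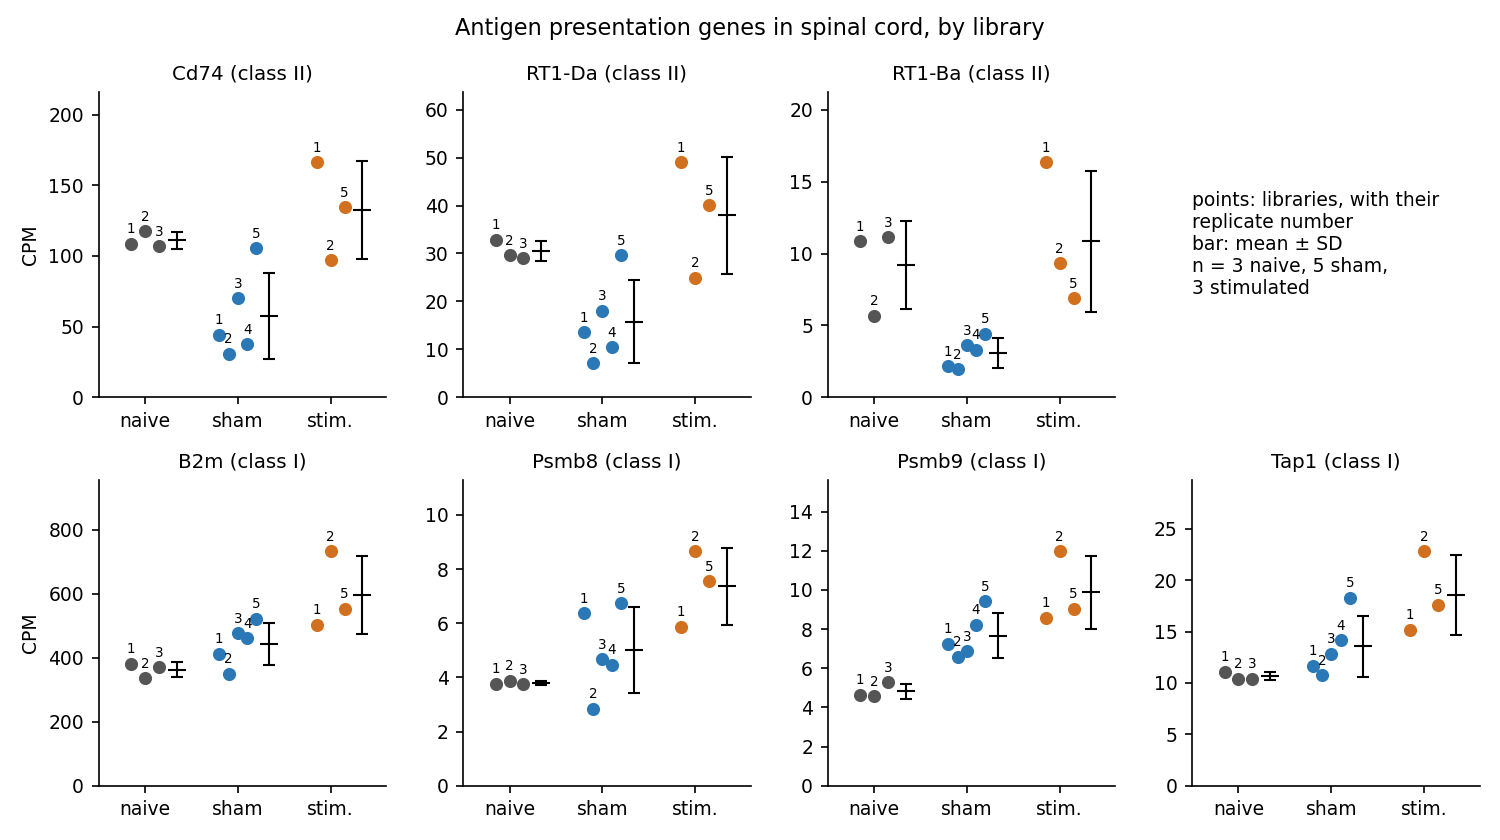
CPM of each gene (y axis, linear from 0) in each of the 11 libraries, by group, with replicate numbers beside the points and the mean ± SD as a bar. The class II genes in the top row have their lowest mean in sham libraries (57.6 CPM for Cd74), and the class I genes in the bottom row have their highest mean in stimulated libraries (596 CPM for B2m).

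Cd74 encodes the invariant chain, which escorts new class II molecules and blocks their peptide groove until they reach the compartment where peptides are loaded. It stood at 109, 117 and 107 CPM in naive 1 to 3, at 44.3, 30.8, 70.0, 37.4 and 105 CPM in sham 1 to 5, and at 166, 96.9 and 135 CPM in SCS 1, SCS 2 and SCS 5. Sham 5 lay at the edge of the naive range and the other sham libraries well below it, so the sham and naive groups did not overlap, but only narrowly. The means were 111 ± 6 CPM (SD, n = 3) in naive, 57.6 ± 30.6 CPM (SD, n = 5) in sham and 133 ± 35 CPM (SD, n = 3) in stimulated libraries. Cd74 was 1.91-fold lower in sham than in naive libraries (log2 fold change -0.94 ± 0.38, SE, edgeR adjusted p = 0.602), which did not pass. Stimulated libraries were 2.29-fold above sham (log2 fold change 1.20 ± 0.38, SE, edgeR adjusted p = 0.126), which did not pass either, and SCS 2 lay below sham 5. Against naive the stimulated libraries differed by 0.26 on the log2 scale, with a 95% interval of -0.71 to 1.23 that leaves a change in either direction possible (edgeR adjusted p = 0.737).

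RT1-Da encodes the alpha chain of a class II molecule of the RT1-D locus. It measured 32.9, 29.7 and 29.0 CPM in naive 1 to 3, then 13.6, 7.15, 18.0, 10.4 and 29.6 CPM in sham 1 to 5, and 49.0, 24.9 and 40.1 CPM in SCS 1, SCS 2 and SCS 5. The sham libraries came in the same order as for Cd74, with sham 5 inside the naive range and sham 2 lowest. The group means were 30.5 ± 2.1 CPM (SD, n = 3), 15.8 ± 8.7 CPM (SD, n = 5) and 38.0 ± 12.2 CPM (SD, n = 3). RT1-Da was 1.90-fold lower in sham than in naive libraries (log2 fold change -0.93 ± 0.40, SE, edgeR adjusted p = 0.616) and did not pass. It was 2.39-fold higher in stimulated than in sham libraries (log2 fold change 1.25 ± 0.40, SE, edgeR adjusted p = 0.124) and did not pass. The difference between stimulated and naive was 0.33 on the log2 scale (95% interval -0.66 to 1.32, edgeR adjusted p = 0.670).

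RT1-Ba, the alpha chain of the RT1-B class II molecule, was the class II gene with the lowest counts and with the largest fold differences between sham and the other groups. Its sham libraries held 31 to 87 reads, against 139 to 635 in naive and 156 to 482 in stimulated libraries. The levels were 10.9, 5.67 and 11.1 CPM in naive 1 to 3, and 2.15, 1.96, 3.60, 3.30 and 4.41 CPM in sham 1 to 5. SCS 1, SCS 2 and SCS 5 stood at 16.3, 9.31 and 6.88 CPM. Every sham library lay below every naive and every stimulated library, and the naive and stimulated libraries overlapped. RT1-Ba rose from 3.09 ± 1.02 CPM (SD, n = 5) in sham to 10.8 ± 4.9 CPM (SD, n = 3) in stimulated libraries, a 3.55-fold difference (log2 fold change 1.83 ± 0.35, SE, edgeR adjusted p = 0.0239). This call was lost without sham 1 (edgeR adjusted p = 0.0649), sham 2 (0.0567), sham 3 (0.0530) or SCS 2 (0.101). The log2 fold change was 1.71 to 1.93 in these fits. They called 1.12%, 1.42%, 1.46% and 0.224% of all genes in the same order, against 3.57% with all libraries. The RT1-Ba call was also lost with the replicate number as a block in the fit (edgeR adjusted p = 0.0892), where 0.0317% of all genes were called. The difference between sham and naive, where RT1-Ba had 9.22 ± 3.07 CPM (SD, n = 3), was 3.00-fold downward (log2 fold change -1.59 ± 0.35, SE, edgeR adjusted p = 0.197) and did not pass. Stimulated and naive libraries differed by 0.24 on the log2 scale (95% interval -0.56 to 1.05, edgeR adjusted p = 0.713).

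B2m encodes beta-2 microglobulin, the small chain that all classical class I molecules need to fold and reach the surface. It measured 382, 336 and 370 CPM in naive 1 to 3, then 412, 350, 476, 461 and 521 CPM in sham 1 to 5, and 503, 733 and 553 CPM in SCS 1, SCS 2 and SCS 5. All stimulated libraries lay above all naive libraries, while the sham libraries overlapped both groups. B2m rose from 363 ± 23 CPM (SD, n = 3) in naive to 596 ± 121 CPM (SD, n = 3) in stimulated libraries, by 1.64-fold (log2 fold change 0.72 ± 0.16, SE, edgeR adjusted p = 0.0121). The call was lost without naive 2 (edgeR adjusted p = 0.0523). Sham libraries averaged 444 ± 66 CPM (SD, n = 5), which differed from naive by 0.29 ± 0.14 (SE, edgeR adjusted p = 0.636) and from stimulated by 0.43 ± 0.14 (SE, edgeR adjusted p = 0.113) on the log2 scale.

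Psmb8 and Psmb9 encode catalytic subunits of the immunoproteasome, the interferon-inducible form of the proteasome that cuts peptides suited to class I molecules. Psmb8 stood at 3.77, 3.88 and 3.75 CPM in naive 1 to 3, at 6.36, 2.85, 4.66, 4.46 and 6.74 CPM in sham 1 to 5, and at 5.87, 8.67 and 7.54 CPM in SCS 1, SCS 2 and SCS 5. Its naive libraries were nearly level with each other, and the sham libraries spread from below the naive range up to the stimulated range. Psmb8 rose 1.93-fold from naive to stimulated libraries, from 3.80 ± 0.07 to 7.36 ± 1.41 CPM (SD, n = 3 each, log2 fold change 0.95 ± 0.25, SE, edgeR adjusted p = 0.0203). The call was lost without naive 1 (edgeR adjusted p = 0.0627), naive 2 (0.0669), naive 3 (0.0713) or SCS 2 (0.0857). These fits called 7.6%, 6.38%, 7.51% and 6.79% of all genes in the same order, against 14.9% with all libraries. The Psmb8 call was also lost with the replicate number as a block (edgeR adjusted p = 0.150), where 4.26% of all genes were called. Sham libraries, at 5.01 ± 1.57 CPM (SD, n = 5), differed from naive by 0.42 ± 0.23 (SE, edgeR adjusted p = 0.671) and from stimulated by 0.53 ± 0.22 (SE, edgeR adjusted p = 0.192) on the log2 scale.

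Psmb9 was the class I gene with the smallest p against naive. It measured 4.64, 4.57 and 5.27 CPM in naive 1 to 3, then 7.25, 6.58, 6.85, 8.21 and 9.42 CPM in sham 1 to 5, and 8.58, 11.99 and 9.04 CPM in SCS 1, SCS 2 and SCS 5. Every library with paclitaxel and electrode, stimulated or not, lay above every naive library. Psmb9 rose 2.02-fold from 4.83 ± 0.38 CPM (SD, n = 3) in naive to 9.87 ± 1.85 CPM (SD, n = 3) in stimulated libraries (log2 fold change 1.02 ± 0.17, SE, edgeR adjusted p = 0.00160). This call held in all 20 alternatives that were run, with adjusted p from 1.74e-06 to 0.0325. In sham libraries, at 7.66 ± 1.16 CPM (SD, n = 5), Psmb9 was 1.58-fold above naive (log2 fold change 0.66 ± 0.15, SE, edgeR adjusted p = 0.178), which did not pass. Stimulated and sham libraries differed by 0.36 ± 0.15 on the log2 scale (SE, edgeR adjusted p = 0.188).

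Tap1 encodes a subunit of the transporter that carries cut peptides into the endoplasmic reticulum, where class I molecules are loaded. The values were 11.1, 10.4 and 10.4 CPM in naive 1 to 3, 11.7, 10.8, 12.9, 14.2 and 18.3 CPM in sham 1 to 5, and 15.2, 22.9 and 17.6 CPM in SCS 1, SCS 2 and SCS 5. Sham 2 lay inside the naive range, and sham 5 lay inside the stimulated range. Tap1 rose 1.74-fold from 10.6 ± 0.4 CPM (SD, n = 3) in naive to 18.6 ± 3.9 CPM (SD, n = 3) in stimulated libraries (log2 fold change 0.80 ± 0.18, SE, edgeR adjusted p = 0.0102). The call was lost with the replicate number as a block (edgeR adjusted p = 0.0896), where the share of all genes called fell from 14.9% to 4.26%. At 13.6 ± 2.9 CPM (SD, n = 5), sham libraries differed from naive by 0.35 ± 0.17 (SE, edgeR adjusted p = 0.625) and from stimulated by 0.44 ± 0.16 (SE, edgeR adjusted p = 0.135) on the log2 scale.

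**Figure D3:**
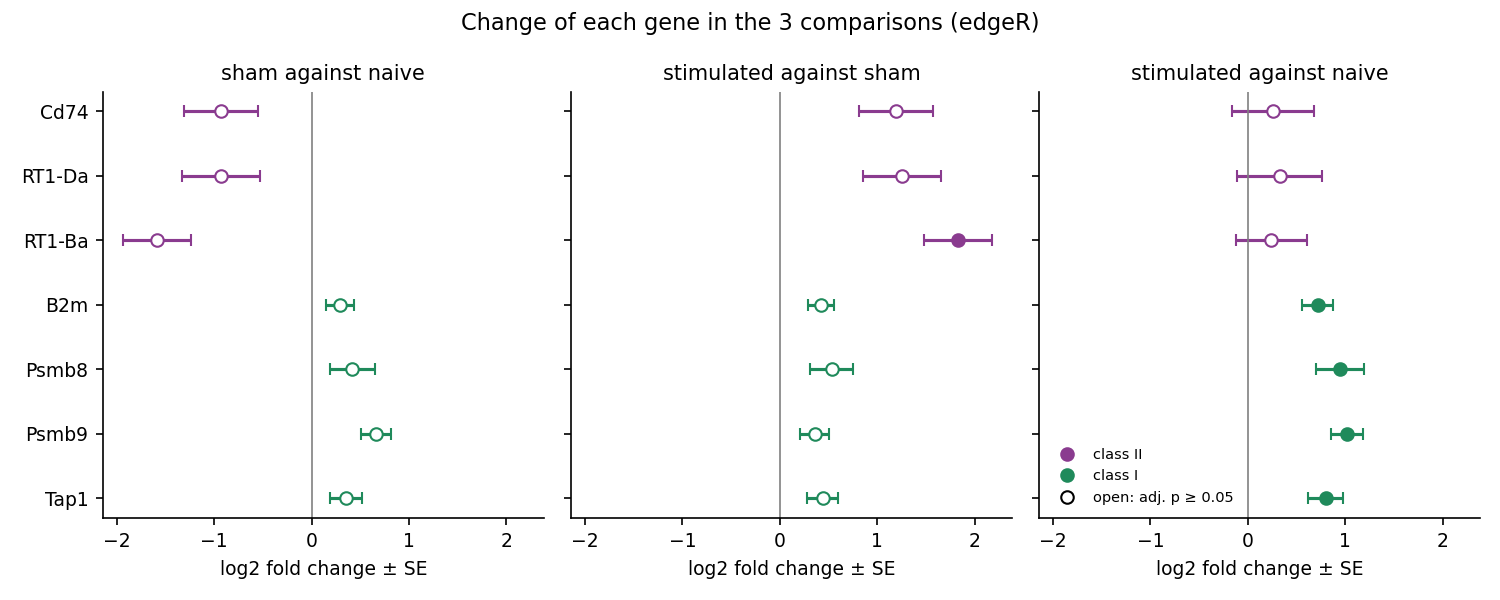
Log2 fold change ± SE (x axis) of each gene in the 3 comparisons, with filled points where the edgeR adjusted p is under 0.05. The class II genes lie left of 0 in sham against naive and right of it in stimulated against sham, and the class I genes lie right of 0 in all 3 panels.

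For sham against naive, which asks what differed after drug and electrode together, 0 of the 7 genes were called by edgeR, beside 0.14% of all genes tested. At an unadjusted p under 0.05 there were 4, namely the 3 class II genes on the lower side and Psmb9 on the higher side, against 7.98% of all genes. DESeq2 called 2 of the 7, RT1-Ba as lower (log2 fold change -1.58, adjusted p 0.000292) and Psmb9 as higher (0.66, adjusted p 0.0231), beside 0.844% of all genes called by that tool. Limma-voom called 0, and with sample quality weights it called Cd74 as lower (log2 fold change -1.21, adjusted p 0.0413), beside 0.127% and 0.279% of all genes. The groups did not overlap for 3 genes, Cd74, RT1-Ba and Psmb9, against 7.03% of all genes. Among all genes ordered by this log2 fold change, RT1-Ba stood at the 0.102 percentile, Cd74 at the 0.267 percentile and RT1-Da at the 0.286 percentile. The median log2 fold change was -0.94 over the class II genes and 0.39 over the class I genes, beside 0.01 over all genes tested.

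For stimulated against sham, which asks what stimulation changed in rats with drug and electrode, 1 of the 7 genes was called, RT1-Ba, beside 3.57% of all genes. All 7 differences pointed upward, and all 7 had an unadjusted p under 0.05, against 11.9% of all genes that did so upward. Apart from RT1-Ba, the adjusted p was 0.113 to 0.192. Without sham 5 the count was 4, with Cd74 (log2 fold change 1.54, edgeR adjusted p = 0.0244), RT1-Da (1.63, edgeR adjusted p = 0.0238) and Tap1 (0.58, edgeR adjusted p = 0.0199) called beside RT1-Ba, while the share of all genes called rose to 6.7%. The groups did not overlap for RT1-Ba alone of the 7, against 10.2% of all genes. The median log2 fold change was 1.25 over the class II genes and 0.43 over the class I genes, beside -0.01 over all genes. RT1-Ba ranked 63rd from the top of the 15758 genes by log2 fold change, RT1-Da ranked 193rd and Cd74 ranked 238th.

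Stimulated and naive libraries differ in drug, electrode and stimulation together. Here 4 of the 7 genes were called, all 4 of class I and all higher, beside 14.9% of all genes called and 10.1% called higher. The same 4 genes did not overlap between these groups, against 36.3% of all genes. Their log2 fold changes ran from 0.72 to 1.02 with a median of 0.87, while the class II genes ran from 0.24 to 0.33 with a median of 0.26, beside -0.02 over all genes. Leaving out naive 2 lowered the count to 2, Psmb9 and Tap1, while the share of all genes called fell to 6.38%. Because the 3 comparisons share libraries in pairs, the values of a gene in them are not independent of each other.

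**Figure D4:**
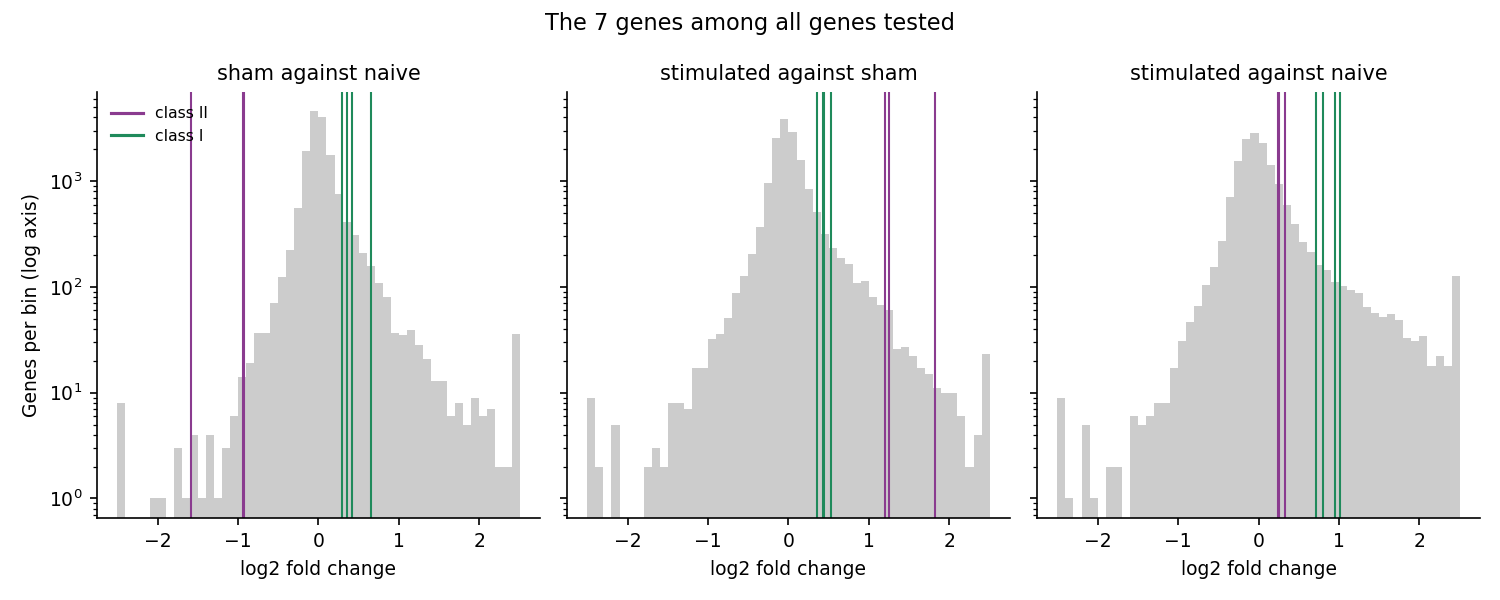
Histograms of the log2 fold change of all 15758 genes (log y axis, genes per bin, values beyond the range drawn in the end bins), with vertical lines at the 3 class II and 4 class I genes. The class II lines lie in the left tail in sham against naive, at -1.59 to -0.93, and in the right tail in stimulated against sham, at 1.20 to 1.83.

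In the relation of class II to class I within a library the scaling of that library cancels, apart from the prior count added before taking logs. For each library the mean log2 CPM of the class I genes was subtracted from that of the class II genes, and the naive mean of this difference was set to 0. Naive 1 to 3 lay at 0.11, -0.15 and 0.04. Sham 1 to 5 lay at -1.90, -2.01, -1.26, -1.94 and -1.13, all below every naive library. SCS 1, SCS 2 and SCS 5 lay at 0.11, -1.28 and -0.69, so that SCS 1 was just above the highest naive library and SCS 2 lay within the sham range. The mean was -1.65 ± 0.42 (SD, n = 5) in sham and -0.62 ± 0.70 (SD, n = 3) in stimulated libraries, with a naive SD of 0.13 (n = 3). As a score over chosen genes it was given no test. Without SCS 1 the stimulated mean stood 0.66 above sham and -0.99 from naive, and without SCS 2 it stood 1.36 above sham and -0.29 from naive.

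**Figure D5:**
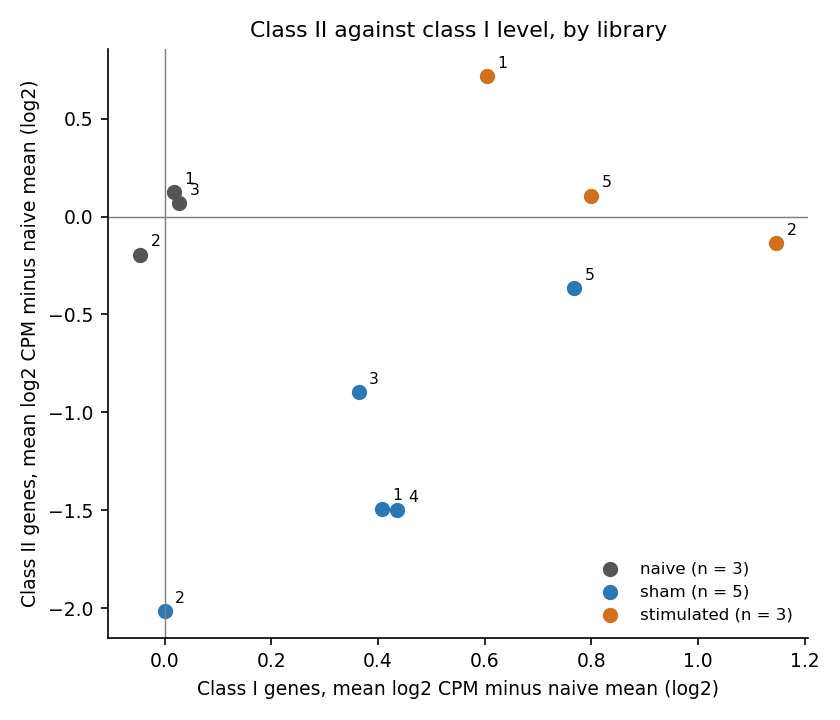
Mean log2 CPM of the 3 class II genes (y axis) against that of the 4 class I genes (x axis) in each library, both relative to the naive mean, with replicate numbers beside the points. Sham libraries lie below the naive ones on the class II axis, from -2.01 to -0.37. Stimulated libraries lie to the right of the naive ones on the class I axis, from 0.60 to 1.15. On that axis they overlap the sham libraries, as sham 5 lies at 0.77.

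Within the sham group the 7 genes ranked the libraries alike at both ends. Sham 5 was the highest sham library for 7 of the 7 genes and sham 2 the lowest for 7 of the 7. Over all genes tested, sham 5 was highest for 24.2% and sham 2 lowest for 18.7%. In the stimulated group the classes ran in opposite order. SCS 1 was highest for 3 of 3 class II genes and lowest for 4 of 4 class I genes, whereas SCS 2 was highest for 4 of 4 class I genes and lowest for 2 of 3 class II genes. Over all genes SCS 1 was highest for 33.0% and lowest for 32.2%, and SCS 2 was highest for 37.1% and lowest for 37.2%. The spread of the class II genes in sham libraries was wide, with a coefficient of variation of 53.2% for Cd74 and 55.4% for RT1-Da, against 5.12% and 6.77% in naive libraries. RT1-Ba varied by 33.2% in sham and 33.3% in naive libraries. The edgeR fit pooled the spread over groups, so its p-values for groups that vary more may be too small.

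Each gene followed its own class over the 11 libraries, which hold all 3 groups and share their scaling. As a description without a test, the Pearson r of log2 CPM with the mean of the rest of the same class was 0.86 to 0.96 for the class II genes and 0.87 to 0.96 for the class I genes. With the other class it was 0.18 to 0.27 for the class II genes and 0.0025 to 0.35 for the class I genes. These r mix differences between groups with those within them. Within sham both classes had sham 5 highest and sham 2 lowest, whereas in the stimulated group they ran in opposite order. So the low r does not show that the classes vary independently. Among 14453 other genes with a mean of at least 1 CPM, the gene most like the class II mean was ENSRNOG00000032708 (r = 0.94). It had 10.3 ± 2.7 CPM (SD, n = 3) in naive, 3.11 ± 1.29 CPM (SD, n = 5) in sham and 12.2 ± 6.6 CPM (SD, n = 3) in stimulated libraries. The gene most like the class I mean was ENSRNOG00000043098 (r = 0.98), with 16.2 ± 1.4 CPM (SD, n = 3), 40.1 ± 15.2 CPM (SD, n = 5) and 96.3 ± 33.0 CPM (SD, n = 3) in the same groups. No table used here pairs either ID with a name.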

How the data were processed

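Poly(A)-selected, directional RNA-seq libraries of rat spinal cord were made from 1 ug of total RNA, per the labels' protocols. The authors deposited whole-number counts per Ensembl gene ID. HISAT2, featureCounts, DESeq2 and the build rn6 are named by the submitters' processing notes. The sources used here give no version, annotation, strand setting or filter, so counts of overlapping genes are uncertain. Columns were matched to samples by title, replicate numbers are those of the titles, and 17 columns whose names match no sample listed here were left out. Of these, 3 are spinal cord columns that bear the letter S, as the stimulated libraries do.

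Genes were filtered with filterByExpr of edgeR 4.0.16 (R 4.3.3), which left 15758 genes. All 11 libraries entered 1 quasi-likelihood fit with TMM scaling, 8 residual degrees of freedom and a term per group. Two-sided tests were used, with Benjamini-Hochberg adjustment over all genes and a threshold of 0.05. The SE is the size of the log2 fold change divided by the square root of F, and a prior count of 2 went into log2 CPM. Libraries of a group differed by a chi-square of 5.10 to 29.5 per degree of freedom, so none agreed within sampling noise. The named genes are the 7 members and, by Pearson r, the 1 ID most like each class. Further pathway and marker lists could not be measured, because 0 IDs matched the gene table. The members and lists were chosen with earlier results of these data known. Alternatives covered scaling, filter, DESeq2 1.42.0, limma 3.58.1, fits of 2 groups, the threshold, the replicate block and leaving out each library.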

Additional observations from a re-analysis of the deposited data

How the results depend on the processing

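Of the 420 member tests under alternatives (20 for each gene and comparison), 394 kept their direction and their side of the threshold, 13 lost a call, 12 gained a call and 1 changed sign. That was RT1-Ba in stimulated against naive, at -0.18 without SCS 1 and up to 0.48 without SCS 5, and it was not called in any fit. In sham against naive, 2 members were called with DESeq2 (0.844% of all genes) and 1 with limma-voom and quality weights (0.279%). With any 1 library left out the count was 0, beside 0.0376% to 0.354% of all genes. In stimulated against sham, 3 were called with DESeq2 (RT1-Da, RT1-Ba and B2m, beside 7.21% of all genes). Limma-voom called 3 and its fit with quality weights 3 (Cd74, RT1-Da and RT1-Ba in both, beside 3.99% and 3.12%). With 1 library left out the count was 0 to 4, beside 0.224% to 6.7% of all genes. In stimulated against naive, the count was 2 to 4 with 1 library left out, beside 6.38% to 17.7% of all genes. With the replicate number as a block (4 residual degrees of freedom) 0, 0 and 1 members were called in the same order of comparisons, and the last was Psmb9. The block fit called 0.0571%, 0.0317% and 4.26% of all genes in these comparisons. Equal numbers correlated at -0.17 to 0.13 and were not taken as pairs. The cause of these differences between tools and settings was not tested.

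Leaving out 1 library moved the class II minus class I difference (sham against naive) to -1.78 to -1.56. For stimulated libraries it gave 0.66 to 1.36 against sham and -0.99 to -0.29 against naive. Over all genes 22, 563 and 2342 were called, against 133, 1136 and 2796 with DESeq2, 9, 5 and 672 with the replicate block, and 6 to 56, 36 to 1057 and 1018 to 2786 with 1 library left out. Sham against naive had 44 with quality weights, and stimulated against sham had 140 in the fit of 2 groups and 1243 at an adjusted p of 0.1. RT1-Ba had 31 reads in its lowest library and Psmb8 had 45.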
